A study of Mus musculus with 8 samples.

Results

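The 10 genes described here encode NF-kB subunits and proteins that regulate NF-kB. They are the rows of the deposited count table whose symbol is Nfkb1, Nfkb2, Relb, Nfkbia, Nfkbie, Bcl3, Nfkbiz, Nfkbid, Tnfaip3 or Tnip1, 10 of the 25572 gene identifiers in the table, each found once. All 10 passed the filter on low counts, which kept 13575 genes. RNA sequencing was done on cells labelled as neutrophils, sorted by flow cytometry from PyMT-N tumours of C57/B6 mice. They were sorted into fractions with high and low surface ICAM1, the adhesion molecule also called CD54. There were 4 libraries of ICAM1-high cells (cd54+ in the titles) and 4 of ICAM1-low cells (cd54-), numbered 1, 2, 3 and 5 in both groups and each made from 150 pg of total RNA. No genotype, agent, time or age is given for either group, both groups come from tumour-bearing mice, and whether libraries of the same group were made from different mice is not stated. The p-values therefore set the difference between the groups against the scatter of these 8 libraries within groups. Some of that scatter may be technical, and how far the p-values extend to other mice cannot be told. How the PyMT-N tumours were made is not stated in the labels either.

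NF-kB is a family of dimeric transcription factors that IkB proteins hold inactive, mostly in the cytoplasm. Signals from TNF, interleukin-1 and Toll-like receptors activate a kinase complex that marks the classical IkB proteins for destruction, and the freed dimers enter the nucleus. There they induce inflammatory genes, Icam1 among them, together with genes that end the response: Nfkbia and Nfkbie, which encode new classical IkB proteins, and Tnfaip3, which encodes the ubiquitin-editing enzyme A20. In neutrophils this pathway drives cytokine production and prolongs survival.

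These genes are induced by the factor they regulate, so their promoters are shown first. Of the 10 genes, 7 had an entry in the RefSeq promoter table (build GRCm38.p6, an older build than the GRCm39 named for the counts, so that entries were matched by symbol and not by position). Nfkb1, Relb and Nfkbiz had none. The windows run from 250 bases before to 50 bases after each annotated start. The NF-kB consensus decamer (a run of G, then a purine, free bases and pyrimidines, ending in C) was searched on both strands. At least 1 match was present for 7 of 7 genes with an entry and in 9 of their 12 windows, against 2581 of 27025 genes (9.55%) and 2779 of 32851 windows (8.46%) in the whole table. A match describes the letters only and does not show that the factor binds there. The windows of Nfkbia, the best known target among the inhibitors, and of the subunit gene Nfkb2 follow in full, 5′ to 3′, with every match in capitals. For Nfkb2 the first of its 3 windows is given, which holds matches at -39, -38 and -11 from the start.
Nfkbia (chr12:55492598-55492897, minus strand): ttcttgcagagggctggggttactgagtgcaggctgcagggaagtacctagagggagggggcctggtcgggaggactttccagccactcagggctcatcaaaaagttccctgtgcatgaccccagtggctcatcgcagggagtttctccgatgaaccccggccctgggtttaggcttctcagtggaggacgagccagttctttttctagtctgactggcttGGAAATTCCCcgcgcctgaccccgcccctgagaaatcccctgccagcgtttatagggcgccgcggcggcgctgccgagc
Nfkb2 (chr19:46304487-46304786, plus strand): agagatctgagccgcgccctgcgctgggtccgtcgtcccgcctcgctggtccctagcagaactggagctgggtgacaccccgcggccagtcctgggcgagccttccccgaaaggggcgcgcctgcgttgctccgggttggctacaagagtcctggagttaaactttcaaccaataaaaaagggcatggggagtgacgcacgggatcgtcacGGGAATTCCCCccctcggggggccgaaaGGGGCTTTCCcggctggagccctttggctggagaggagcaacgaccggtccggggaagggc

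For the other genes a stretch of 60 bases around 1 match is given, to show how the matched letters vary, again with matches in capitals. The Nfkb2 line is from another of its windows. Distances count the first base of the match from the annotated start.
Nfkb2 (chr19:46305680-46305739, plus strand, match at 11 from the start): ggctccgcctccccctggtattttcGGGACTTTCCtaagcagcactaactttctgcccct
Nfkbie (chr17:45555569-45555628, plus strand, match at -106 from the start): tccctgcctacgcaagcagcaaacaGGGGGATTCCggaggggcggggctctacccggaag
Bcl3 (chr7:19822719-19822778, minus strand, match at 3 from the start): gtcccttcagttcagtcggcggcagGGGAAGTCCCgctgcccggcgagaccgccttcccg
Nfkbid (chr7:30422200-30422259, plus strand, match at -181 from the start): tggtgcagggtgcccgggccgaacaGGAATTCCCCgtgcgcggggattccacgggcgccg
Tnfaip3 (chr10:19015388-19015447, minus strand, match at -12 from the start): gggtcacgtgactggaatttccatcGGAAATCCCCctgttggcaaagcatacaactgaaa
Tnip1 (chr11:54962964-54963023, minus strand, match at -58 from the start): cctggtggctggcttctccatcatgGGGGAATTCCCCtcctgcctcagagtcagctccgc
In Tnip1 the capitals join matches at -58, -57 and -56 that overlap one another, as do those at -39 and -38 in Nfkb2. The single Icam1 window held no match, which says only that these letters are not in those 300 bases.

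The libraries held 15940080 to 21824788 counts, and a floor of 3 counts, which allows for counting error alone, corresponds to 0.121 to 0.263 CPM (counts scaled to a common library size). CPM here is taken after TMM scaling, which assumes that most genes do not change. The 10 genes were deeply counted, from 66 counts for Tnip1 in ICAM1-low replicate 3 to 37703 for Nfkbiz in ICAM1-low replicate 5, so counting error is small beside the spread between libraries. The library labelled ICAM1-low replicate 5 stood apart. Across genes, its log2 CPM had a Pearson's r with the other ICAM1-low libraries of 0.60 to 0.69, while the other 3 had 0.80 to 0.84 among themselves and the ICAM1-high libraries 0.77 to 0.85 (genes are not independent replicates). With ICAM1-high replicates 1, 2, 3 and 5 its r was 0.667, 0.707, 0.695 and 0.73. Its highest r was thus with the ICAM1-high library of the same number. The other 3 ICAM1-low libraries had 0.539 to 0.78 with the ICAM1-high libraries. Icam1 mRNA was 18.7, 9.25 and 4.31 CPM in ICAM1-low replicates 1, 2 and 3 and 138 CPM in replicate 5, against 48.2, 58.4, 42.4 and 122 CPM in ICAM1-high replicates 1, 2, 3 and 5. The library thus goes against its label at the mRNA level, although the sort was on surface protein, and the reason was not tested. The log2 fold change of Icam1 was 0.67 ± 0.92 (edgeR adjusted p = 0.754) with all libraries, and 2.64 without this one (edgeR adjusted p = 0.0483). Without both libraries numbered 5 it was 2.22 (edgeR adjusted p = 0.0958). Because ICAM1-low replicate 5 was singled out in part by its own Icam1 value, the fit without it is no independent test of Icam1. The fold changes of the 10 genes below are therefore given with and without this library, while the levels per length and the search for like patterns use all 8.

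Markers of other cells moved with the sort. The summed level of 15 neutrophil markers was 7821 to 32051 CPM in the ICAM1-low group and 1535 to 4677 CPM in the ICAM1-high group (7 of 15 lower past the threshold used below, none higher), and Ly6g, a defining surface marker, was below the floor at 0.095 CPM in ICAM1-high replicate 1. The sum of 15 macrophage markers was 822 to 1175 CPM in the ICAM1-low group and 5741 to 16363 CPM in the ICAM1-high group (11 of 15 higher, none lower). The macrophage sum was thus above the neutrophil sum in every ICAM1-high library and below it in every ICAM1-low library. Sums of different genes do not measure shares of cells, but the name neutrophils for the ICAM1-high cells rests on the labels. Sums of dendritic cell markers (10 genes, 5.61 to 25.2 against 69.1 to 160 CPM) and of T and NK cell markers (14 genes, 2.28 to 60.2 against 93.1 to 395 CPM) were also higher in all ICAM1-high libraries. Past the threshold, 1 of 7 tested dendritic cell genes (H2-DMb2) and 1 of 11 tested T and NK cell genes (Cd4) were higher. Flt3, which dendritic cells need to develop, was at 0 in every ICAM1-low library and at only 0.143 to 3.53 CPM in ICAM1-high libraries. Zbtb46, another dendritic cell marker, overlapped, at 1.4 to 11.1 and 2.99 to 15.7 CPM. The T cell marker Cd3e was at 0 to 0.102 CPM in ICAM1-low libraries. In ICAM1-high replicates 1, 2, 3 and 5 it was at 0.0475 (below the floor), 19.5, 7.19 and 5.74 CPM. Cd3d, another T cell marker, overlapped, at 0 to 1.49 and 0.285 to 5.6 CPM. Sums of B and plasma cell markers (10 genes) overlapped, at 2.08 to 152 and 51.1 to 492 CPM, as did those of 10 fibroblast markers, at 1905 to 3657 and 674 to 2953 CPM. Endothelial markers (6 genes) were at 1.6 to 25.8 and 19.2 to 65.8 CPM, and the 7 of 10 epithelial and tumour markers found in the table at 0.319 to 68.5 and 8.17 to 24.5 CPM. ICAM1-low replicate 5 held the highest neutrophil sum and the lowest sum of 13 mitochondrially encoded genes, 2293 CPM against 6342 to 14907 CPM in the other libraries. The part of these cell types and of this library's quality in the values below was not tested, and in bulk RNA fewer cells of a type and less RNA per cell cannot be told apart.

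None of the 10 genes differed between ICAM1-high and ICAM1-low libraries past the threshold of an adjusted p of 0.05 (edgeR quasi-likelihood test, Benjamini-Hochberg adjustment over all 13575 genes, 4 against 4 libraries). Among all genes tested, 1.5% passed, 166 of them (1.22%) higher and 37 (0.273%) lower in ICAM1-high libraries. At an unadjusted p under 0.05, 2 of the 10 passed, Nfkbiz and Bcl3, both lower, where 16.9% of all genes passed in either direction and 8.96% as lower. No member passed by DESeq2, which gave Nfkbie no adjusted p, or by limma-voom either, where 9.08% and 6.31% of all genes did, or with the replicate number as a block, where 3.99% did. The log2 fold changes of the 10 ran from -1.69 to 0.77 with a median of -0.56, against a median of -0.07 over all genes, and 8 of 10 were below 0, against 52.3% of all genes. The levels of all 10 overlapped between the groups, while 11.4% of all genes had groups that did not overlap. The 95% intervals given below are wide, and reach differences of more than 2-fold in at least 1 direction for every gene of the 10.

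What the 10 genes shared was their highest library. ICAM1-low replicate 5 held the highest level of all 10 genes among the 8 libraries, as it did for 21.1% of all genes. This depends in part on the scaling, since TMM gave that library a factor of 0.7177 against 0.9563 to 1.169 in the others. With library sizes alone it was highest for 6 of the 10 (Nfkbia, Nfkbie, Bcl3, Nfkbiz, Nfkbid and Tnfaip3), against 13% of all genes. Within the 4 ICAM1-low libraries it was the highest for 10 of 10 with either scaling, where it was for 31.8% of all genes with TMM and 23.4% with library sizes alone. Over the mean of the other 3 ICAM1-low libraries it was 2.21-fold for Nfkb1 and 16.2-fold for Nfkbie, the lowest and highest of the 10. The lowest of the 8 libraries was an ICAM1-low library for 8 of the 10 genes, against 64.8% of all genes. The spread of log2 CPM was larger in the ICAM1-low than in the ICAM1-high libraries for all 10 genes, and for 69.3% of all genes. Without ICAM1-low replicate 5 this held for 8 of the 10, against 51.4% of all genes, and turned for Nfkbia (SD 0.02 against 0.70) and Nfkb2 (0.52 against 0.99).

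**Figure D1:**
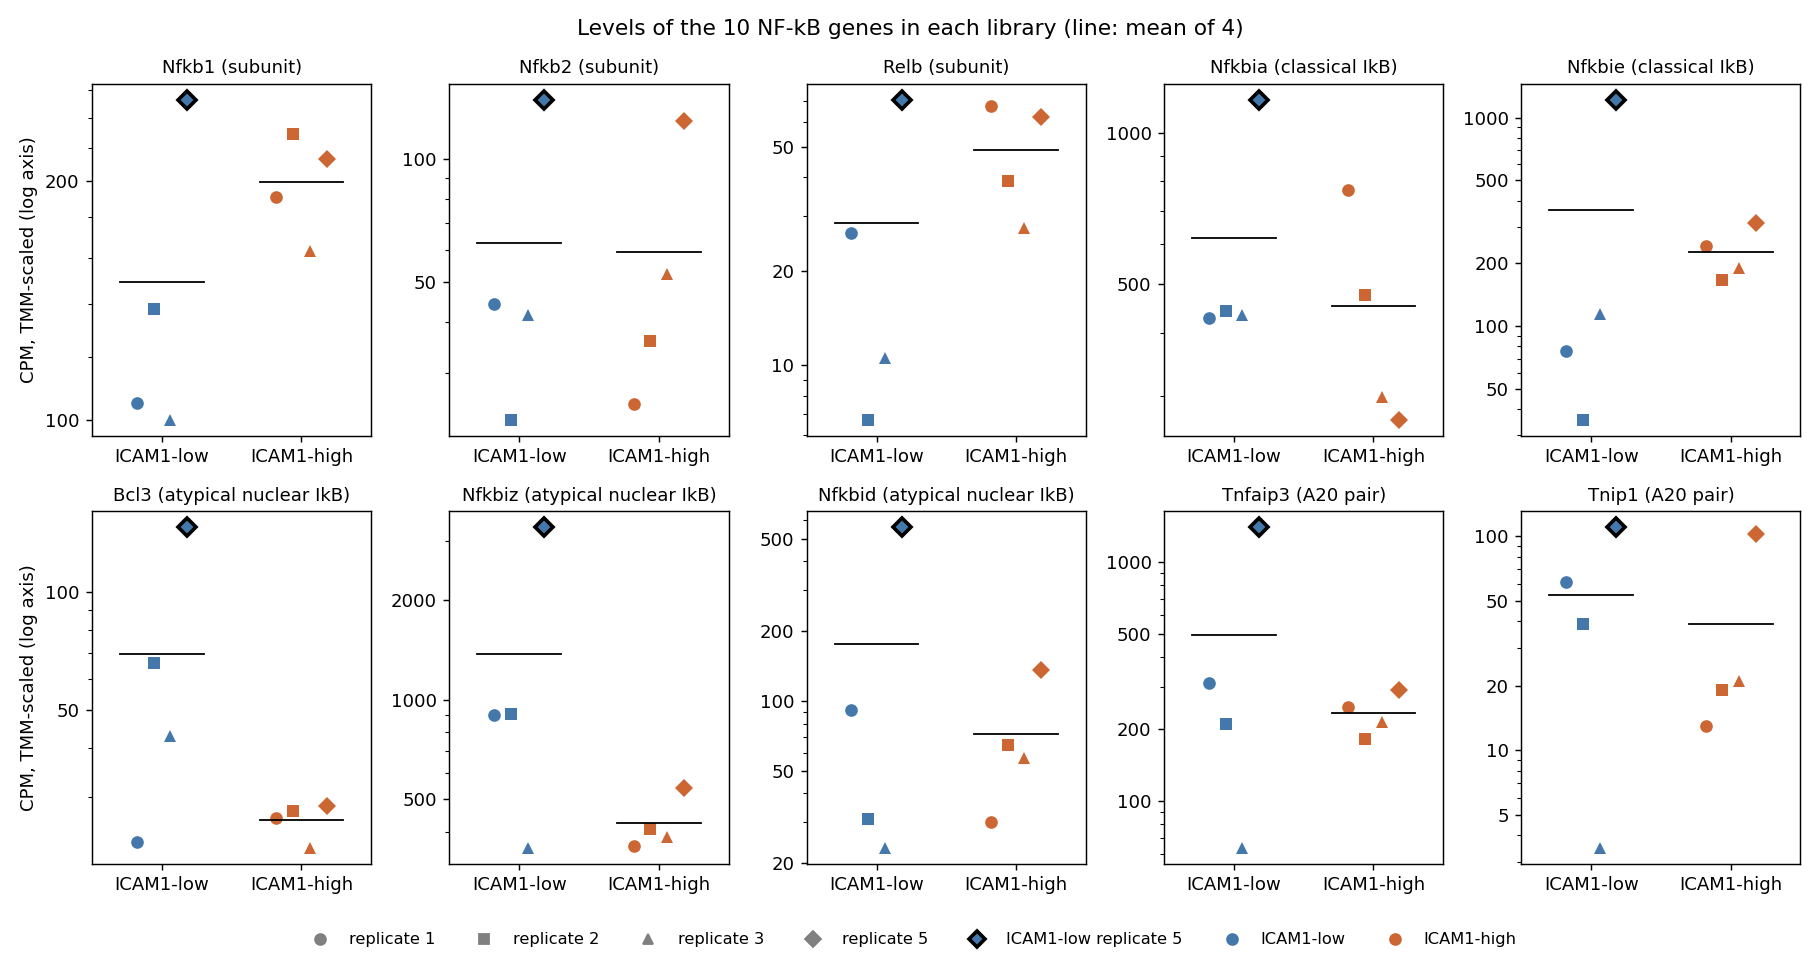
CPM (TMM-scaled, log axis) of the 10 genes in each of the 8 libraries, by group, with replicate numbers as symbols and the mean of 4 as a line. The outlined diamond, ICAM1-low replicate 5, is the highest point in all 10 panels, and without it the ICAM1-high points of Nfkb1, Relb and Nfkbie lie above all ICAM1-low points.

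Among the subunits, Nfkb1, whose product is cut to the p50 DNA-binding subunit, was at 105, 138, 100 and 253 CPM in ICAM1-low replicates 1, 2, 3 and 5 and at 191, 229, 163 and 213 CPM in the ICAM1-high libraries of the same numbers. Every ICAM1-high value was above the first 3 ICAM1-low values and below the last. The log2 fold change was 0.42 ± 0.42 (SE, n = 4 against 4; 95% interval -0.51 to 1.35; edgeR adjusted p = 0.654), and 0.80 without ICAM1-low replicate 5 (edgeR adjusted p = 0.218).

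Relb, a subunit of the alternative pathway that acts in dimers with the product of Nfkb2, was at 26.5, 6.7, 10.6 and 70.8 CPM in ICAM1-low and at 67.5, 38.9, 27.6 and 62.1 CPM in ICAM1-high libraries. It too was lower in the first 3 ICAM1-low libraries than in any ICAM1-high library, by a small margin between 26.5 and 27.6 CPM. Its log2 fold change was 0.77 ± 0.71 (95% interval -0.79 to 2.33; edgeR adjusted p = 0.618), and 1.73 without ICAM1-low replicate 5 (edgeR adjusted p = 0.135). Nfkb2 did not follow Relb. It was at 44.3, 23, 41.6 and 140 CPM in ICAM1-low and 25.2, 35.8, 52.3 and 124 CPM in ICAM1-high libraries, with both libraries numbered 5 highest and the others intermixed (log2 fold change -0.07 ± 0.66; 95% interval -1.53 to 1.38; edgeR adjusted p = 0.968). Its direction turned with the setting, to 0.70 when ICAM1-low replicate 5 was left out, and was -0.68 without its ICAM1-high counterpart.

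Of the classical IkB genes, Nfkbia, which encodes IkB-alpha, the fastest feedback inhibitor of NF-kB, was nearly level in ICAM1-low replicates 1, 2 and 3, at 428, 443 and 435 CPM, and stood at 1163 CPM in replicate 5. The ICAM1-high libraries held 771, 475, 299 and 269 CPM, on both sides of those 3. Its log2 fold change was -0.44 ± 0.52 (95% interval -1.59 to 0.70; edgeR adjusted p = 0.708) and 0.06 without ICAM1-low replicate 5 (edgeR adjusted p = 0.958). Nfkbie, which encodes IkB-epsilon, a slower inhibitor, was at 76.5, 35.6, 114 and 1218 CPM in ICAM1-low and 242, 167, 191 and 312 CPM in ICAM1-high libraries. No other gene of the 10 moved so far with 1 library. Its log2 fold change was -0.66 ± 0.92 (95% interval -2.68 to 1.35; edgeR adjusted p = 0.757) with all libraries and 1.60 ± 0.47 without ICAM1-low replicate 5 (edgeR adjusted p = 0.0797), a change of direction that did not pass the threshold.

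With ICAM1-low replicate 5 left out, Nfkb1, Relb and Nfkbie were thus the 3 of 10 genes whose ICAM1-high values all lay above the ICAM1-low values, as did those of 11.5% of all genes, and none lay below, as did 10.8%. In that fit 3 of the 10 genes had an unadjusted p under 0.05 by edgeR, against 21.5% of all genes, and none passed after adjustment, where 4.05% of all genes did. In 8 of 10 genes the log2 fold change was then above 0, with a median of 0.40 against 0.07 over all genes. Without both libraries numbered 5 the median was 0.11, again with no gene past the threshold, which 2.97% of all genes passed. ICAM1-low replicate 5 was the highest ICAM1-low library for all 10 genes, against 31.8% of all genes with TMM. Leaving it out thus lowers the ICAM1-low side of each of the 10. The rise in their fold changes and the separation of 3 genes are therefore no independent result.

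**Figure D2:**
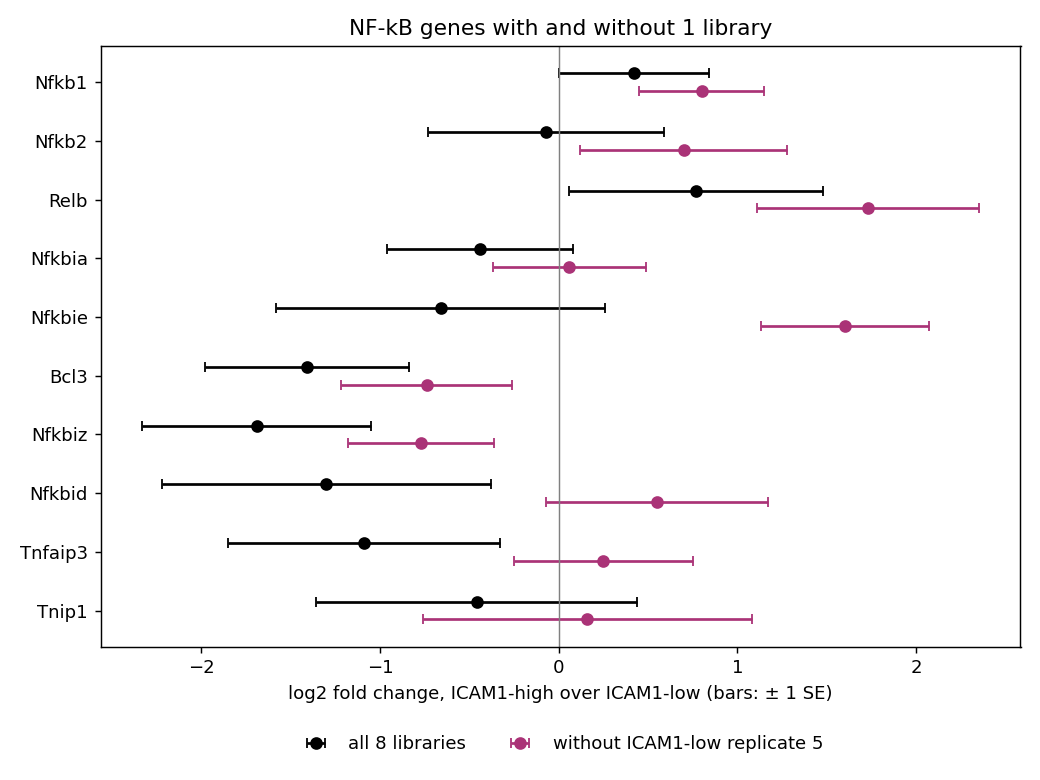
Log2 fold change, ICAM1-high over ICAM1-low, of the 10 genes with all 8 libraries (black) and without ICAM1-low replicate 5 (purple), with bars of 1 SE from the edgeR fit. Bcl3 and Nfkbiz stay below 0 in both fits, Nfkb1 and Relb above 0, and Nfkbie moves from -0.66 to 1.60.

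The atypical IkB genes encode nuclear proteins that bind NF-kB on DNA and adjust which targets are transcribed. Nfkbiz, which encodes IkB-zeta, was at 900, 907, 358 and 3307 CPM in ICAM1-low and at 361, 407, 384 and 543 CPM in ICAM1-high libraries. It was high in 3 ICAM1-low libraries, while replicate 3 lay just under the lowest ICAM1-high value. The log2 fold change was -1.69 ± 0.64 (95% interval -3.09 to -0.29; edgeR adjusted p = 0.213), and -0.77 without ICAM1-low replicate 5 (edgeR adjusted p = 0.320). Bcl3, whose product binds dimers of the smaller subunits, was at 23.1, 65.7, 43 and 146 CPM in ICAM1-low and at 26.5, 27.6, 22.3 and 28.5 CPM in ICAM1-high libraries. The ICAM1-high values lay close together, with an SD of 0.16 in log2 CPM against 1.11 in ICAM1-low libraries. The ICAM1-low values overlapped them only through replicate 1. The log2 fold change of Bcl3 was -1.41 ± 0.57 (95% interval -2.65 to -0.16; edgeR adjusted p = 0.240) and -0.74 without ICAM1-low replicate 5 (edgeR adjusted p = 0.422). Nfkbid, which encodes IkB-NS, was at 91.8, 31.1, 23.4 and 560 CPM in ICAM1-low and 30.2, 64.7, 57 and 136 CPM in ICAM1-high libraries. Apart from replicate 5 the groups were intermixed (log2 fold change -1.30 ± 0.92; 95% interval -3.31 to 0.72; edgeR adjusted p = 0.505; 0.55 without ICAM1-low replicate 5).

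A20, the product of Tnfaip3, and its partner encoded by Tnip1 restrain the signal upstream of the kinase complex. Tnfaip3 was at 311, 211, 63.9 and 1396 CPM in ICAM1-low and at 248, 181, 214 and 291 CPM in ICAM1-high libraries. The ICAM1-low libraries thus held both the lowest and the highest value (log2 fold change -1.09 ± 0.76; 95% interval -2.75 to 0.58; edgeR adjusted p = 0.497), and the log2 fold change was 0.25 without replicate 5. Tnip1 was at 60.9, 38.7, 3.51 and 110 CPM in ICAM1-low and at 13, 19.1, 21.1 and 102 CPM in ICAM1-high libraries. As for Nfkb2, both libraries numbered 5 were the highest, and its log2 fold change was -0.46 ± 0.90 (95% interval -2.43 to 1.52; edgeR adjusted p = 0.837), with 0.16 when ICAM1-low replicate 5 was left out and -1.55 without its ICAM1-high counterpart.

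Levels were compared between genes per length, as TPM, a count divided by the deposited gene length and scaled to the same sum in each library. Nfkbia had the highest median over the 8 libraries, 907 TPM (496 to 1814), above 99.2% of the genes tested, and it exceeded Nfkbiz (median 249 TPM) in 8 of 8 libraries. Nfkbiz exceeded Nfkbie (155 TPM) in 7 of 8. The next neighbours in the order, Nfkbie, Nfkb1 (125 TPM), Tnfaip3 (87.6 TPM), Bcl3 (75.9 TPM) and Nfkbid (75.7 TPM), exceeded one another in only 4 to 6 of 8 libraries and overlapped in range. Nfkbid exceeded Relb (42.8 TPM) in 7 of 8, while Relb exceeded Nfkb2 (26.3 TPM) in 3 of 8 although its median was higher, and Nfkb2 exceeded Tnip1 (23.3 TPM) in 6 of 8. The classical IkB gene Nfkbia and the atypical IkB gene Nfkbiz were thus the most abundant transcripts of the group per length, and Relb, Nfkb2 and Tnip1 the least.

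Ratios between 2 genes in the same library do not depend on how libraries are scaled. The count ratio of Nfkbiz to Nfkb1 was 8.57, 6.56, 3.57 and 13.1 in the ICAM1-low group and 1.89, 1.78, 2.36 and 2.55 in the ICAM1-high group. All ICAM1-low ratios, replicate 5 included, were above all ICAM1-high ratios. On the log2 scale the ratio was 2.84 ± 0.78 (SD, n = 4) in the ICAM1-low group and 1.08 ± 0.25 (SD, n = 4) in the other, a difference of -1.76 that ran from -2.09 to -1.47 when single libraries were left out. The ratio of Bcl3 to Nfkb1 was 0.221, 0.475, 0.429 and 0.579 in the ICAM1-low group and 0.138, 0.121, 0.137 and 0.134 in the ICAM1-high group, again without overlap. Nfkbiz over Relb did not overlap either, at 33.6 to 135 against 5.35 to 13.9. Nfkbia over Nfkb1 overlapped, at 4.08, 3.2, 4.34 and 4.6 against 4.03, 2.07, 1.84 and 1.26.

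Of the 45 pairs among the 10 genes, 8 (17.8%) had ratios that did not overlap between the groups. Relb was in 4 of these pairs and Nfkbiz in 4, with the pair of both counted under each. Of all 15598905 pairs of the 5586 genes whose average log2 CPM was at least 5, 14.9% did not overlap, so the share among the 10 genes is near the background and is not particular to them. The neutrophil and macrophage marker sums above separate the same libraries.

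**Figure D3:**
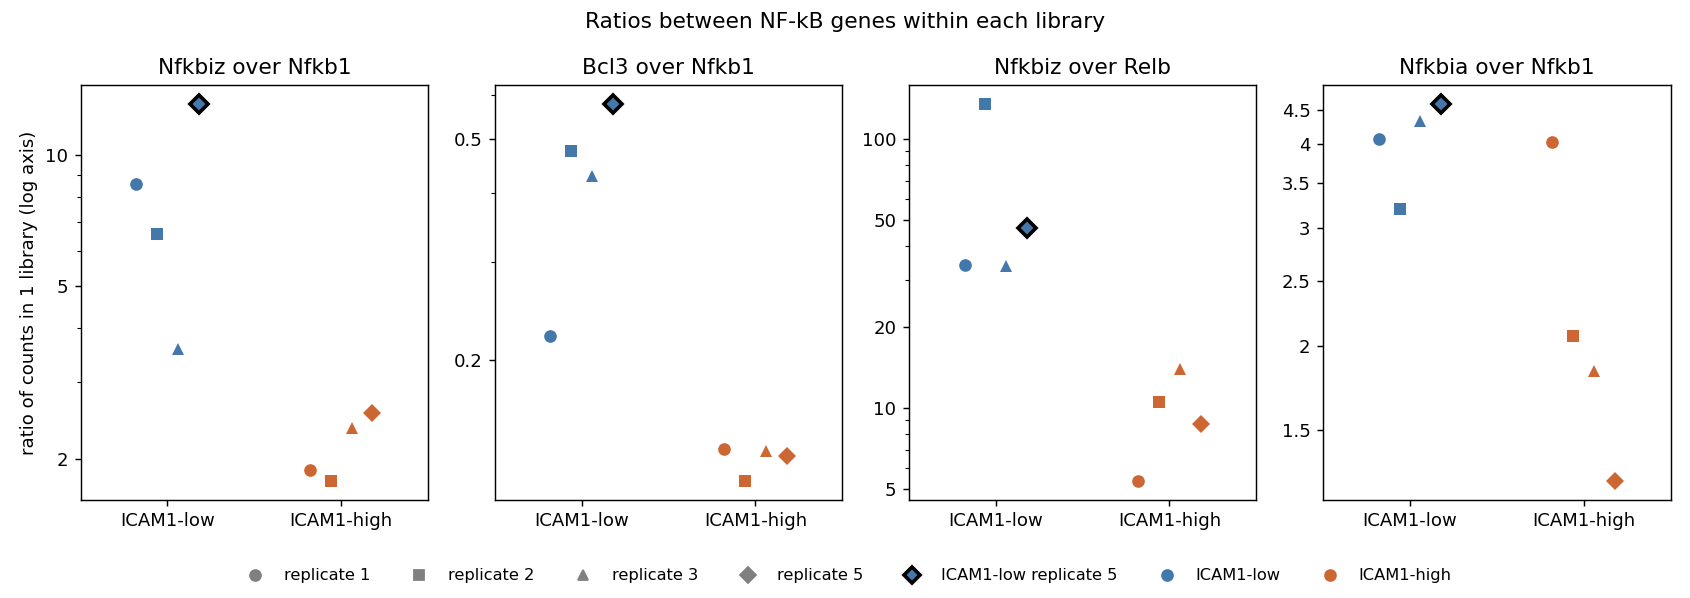
Ratio of the counts of 2 genes within each library (log axis), by group, with replicate numbers as symbols and ICAM1-low replicate 5 outlined. The groups are apart for Nfkbiz over Nfkb1, Bcl3 over Nfkb1 and Nfkbiz over Relb and overlap for Nfkbia over Nfkb1.

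The genes whose pattern over the 8 libraries was most like that of a member were found by the root mean square difference of log2 CPM, each gene centred on its own mean, among 7724 genes whose average log2 CPM was at least 4. For Nfkb1 they were Rnps1 (0.16), Actr2 (0.17) and Cd47 (0.19), where Nfkb1 itself varied by 0.47 around its mean. For Nfkbia they were Ankrd13a (0.18), Ago2 (0.22) and Tug1 (0.25), with 0.64 for Nfkbia itself. For Nfkbiz they were Sema4a (0.15), Rasgrp4 (0.23) and Emilin2 (0.23), against 1.03, and for Bcl3 Spata13 (0.24), Irf1 (0.24) and Map2k3 (0.27), against 0.88. For Tnfaip3 they were Pcf11 (0.21), Oas2 (0.25) and Cd82 (0.29), against 1.15. No member was among the nearest 3 genes of another. The closest members by rank were Tnfaip3 to Nfkbid (0.65), which was the 53rd nearest gene, and Relb to Nfkbie (0.79), the 60th. Bcl3 and Nfkbiz were each other's nearest member (0.60), yet Nfkbiz was only the 383rd nearest gene to Bcl3, and Bcl3 the 265th to Nfkbiz.

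Around the 10 genes, 79 other genes of the pathway were taken in 5 lists, of which 76 were tested, 5 (6.58%) were higher in ICAM1-high libraries and none was lower, against 1.22% and 0.273% of all genes. These counts vary with the tool. DESeq2 called 10 higher and 6 lower (all genes 4.3% and 4.78%), limma-voom 11 and 0 (3.54% and 2.77%), and edgeR without ICAM1-low replicate 5 called 8 and 0 (2.36% and 1.69%). In each of these fits the genes called higher included Bcl2a1a, Bcl2a1b and Bcl2a1d, near-identical copies that were counted separately. Among the remaining subunits and IkB genes (Rela, Rel and Nfkbib), none of 3 passed, with a median log2 fold change of -0.32. Rel, which encodes c-Rel, was at 19.6, 17.9, 69.2 and 665 CPM in ICAM1-low and at 55.9, 186, 54.2 and 79.3 CPM in ICAM1-high libraries, so that replicate 5 was again far above the rest (log2 fold change -1.04 ± 1.03, edgeR adjusted p = 0.644; 1.42 without that library). The log2 fold change was -0.32 ± 0.52 for Rela and 0.11 ± 0.99 for Nfkbib, neither past the threshold (edgeR adjusted p = 0.798 and 0.967).

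Of 11 tested upstream receptors, 1 rose. Tnfrsf11a, which encodes RANK, a receptor of the alternative pathway, was at 17.4, 13.6, 7.08 and 4.03 CPM in ICAM1-low and 110, 84.5, 61.9 and 92.3 CPM in ICAM1-high libraries. Its lowest ICAM1-high value was above every ICAM1-low value, replicate 5 included (log2 fold change 3.05 ± 0.56; edgeR adjusted p = 0.0259; up to 0.104 when single libraries were left out). The interleukin-1 receptor genes Il1r1 (-2.95 ± 0.92) and Il1rap (-2.65 ± 0.81) did not pass (edgeR adjusted p = 0.144 and 0.138), but were called lower by DESeq2 (adjusted p = 0.00735 and 0.0112). Without ICAM1-low replicate 5 they were at -3.09 and -1.31 (edgeR adjusted p = 0.0906 and 0.201), and the median of the list was -0.69. None of 21 kinases and adaptors passed (median 0.02), among them Myd88, the adaptor of Toll-like and interleukin-1 receptors (-0.98 ± 0.50, edgeR adjusted p = 0.348). None of 12 other feedback regulators passed by edgeR either (median 0.26). DESeq2 called Tnip3 higher (adjusted p = 0.000224) and Rnf11 lower (adjusted p = 0.0355), and limma-voom called Tnip3 and Otulin higher (adjusted p = 0.0225 and 0.0464). Tnip3, a relative of Tnip1, was at 0.973, 0, 0.0532 and 0.351 CPM in ICAM1-low and at 5.56, 14.9, 12.9 and 9.5 CPM in ICAM1-high libraries. The groups did not overlap, the fold is uncertain because ICAM1-low replicates 2 and 3 were under the floor, and the edgeR adjusted p was 0.0933.

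Of 29 tested inducible targets, 4 (13.8%) rose by edgeR and none fell past the threshold, with a median log2 fold change of -0.16 and 15 fold changes below 0. DESeq2 called 8 higher and 3 lower, and limma-voom 8 higher and none lower. The 3 lower were Ier3 (-2.03 ± 0.60), Clec4e (-2.18 ± 0.68) and Nos2 (-2.04 ± 0.74), with edgeR adjusted p = 0.126, 0.144 and 0.198. Ier3 did not overlap between the groups, at 207 to 1068 CPM in ICAM1-low and 79.4 to 151 CPM in ICAM1-high libraries. Cd83, an activation marker of antigen-presenting cells, was at 29.3, 79.1, 51.4 and 24.5 CPM in ICAM1-low and at 741, 483, 403 and 311 CPM in ICAM1-high libraries (log2 fold change 3.39 ± 0.54; edgeR adjusted p = 0.0153). Vcam1, an adhesion molecule, rose by 3.14 ± 0.47 (edgeR adjusted p = 0.0127), from 41.4 ± 16.3 to 366 ± 102 CPM (SD, n = 4). The survival gene Bcl2a1a and the monocyte-attracting chemokine gene Ccl2 rose by 3.64 ± 0.80 and 2.35 ± 0.51 (edgeR adjusted p = 0.0495 for both), and Bcl2a1a has near-identical copies between which reads may be split. In all 4, replicate 5 lay with the other ICAM1-low libraries, below every ICAM1-high library. Within the 5 lists the genes highest in ICAM1-low replicate 5 numbered 2 of 3, 7 of 11, 9 of 21, 6 of 12 and 15 of 29, in the order given, against 21.1% of all genes tested. Calls were lost for Tnfrsf11a, Bcl2a1a and Ccl2 on leaving out most single libraries, for Cd83 without ICAM1-low or ICAM1-high replicate 1 and for Vcam1 without ICAM1-low replicate 1, with edgeR adjusted p up to 0.144 for these 5 genes. RLE scaling also ended the calls of Bcl2a1a and Ccl2 (edgeR adjusted p = 0.0591 and 0.0586). The log2 fold changes of all 5 stayed above 0 in these fits, with Ccl2 lowest at 2.07 without ICAM1-high replicate 5.

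**Figure D4:**
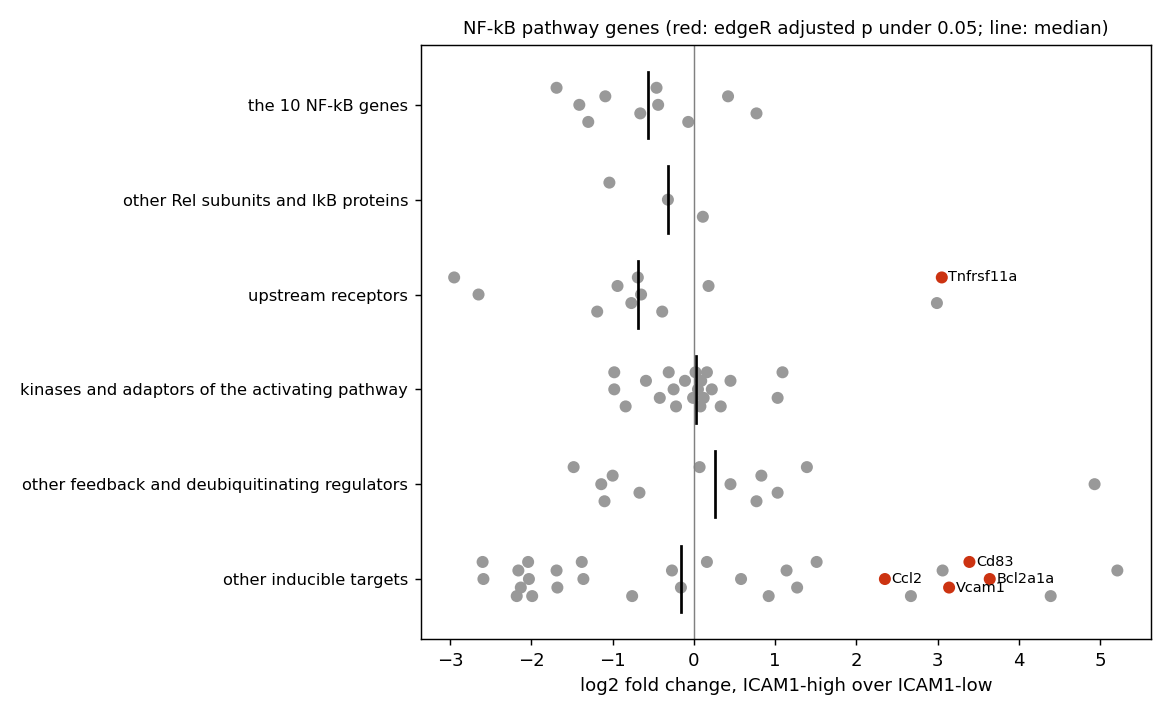
Log2 fold change, ICAM1-high over ICAM1-low, of each tested gene in the 10-gene group and in the 5 lists of other pathway genes, with the median as a line and genes past the threshold in red. The 10 genes lie between -1.69 and 0.77 with none in red, and the 5 red genes, Tnfrsf11a, Cd83, Vcam1, Bcl2a1a and Ccl2, lie between 2.35 and 3.64.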

How the data were processed

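Per the file headers, the authors' table holds estimated counts for each gene, not scaled between libraries, with gene lengths, in 1 table. The submitters' processing notes name Trim Galore 0.6.6 and Salmon 1.9.0 and the build GRCm39; the annotation and settings are not stated. Per the labels' protocols, 150 pg of RNA were amplified with a single-cell kit. Of 25669 rows, 88 identifiers were repeated with identical values, leaving 25572.

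Counts were rounded, filtered (filterByExpr), scaled by TMM and tested with edgeR 4.0.16 in R 4.3.3 (robust quasi-likelihood, group as the only term, Benjamini-Hochberg over all genes, threshold 0.05). SE is the fold change divided by the root of F. The fit was tested on simulated data. There it called 0 of 50 genes changed 2-fold, 3 of 50 changed 4-fold, 13 of 50 changed 8-fold and 23 of 50 changed 16-fold. A gene that was not called may therefore still differ. DESeq2 1.42.0 and limma-voom 3.58.1 were alternatives. Log2 CPM used a prior count of 2, ratios an offset of 0.5 counts.

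The genes, lists and promoter search were chosen with earlier results of these data known. Named were the 10 genes, Icam1, list genes past the threshold or with the 3 smallest p, and the 3 genes nearest to a member. Some list genes called by alternative fits and some cell type markers were named as well. Ratios were added after seeing values.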

Additional observations from a re-analysis of the deposited data

Results flagged for a closer look

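Of the named genes, 27 were searched in both groups of 4 libraries (54 groups). In 8 groups, 1 library had a gap to the nearest other that exceeded the 95% critical value of Dixon's test. For normally distributed values about 1 in 20 groups would exceed it. Among all 13575 genes tested the share was 15.4% in the ICAM1-low and 10.4% in the ICAM1-high libraries. The 8 of 54 groups are thus near that background. ICAM1-low replicate 5 was such a high library for 7.36% of all genes. In 6 of the 8 it was ICAM1-low replicate 5: Nfkbia at 1163 CPM (nearest 443), Nfkbie at 1218 (nearest 114), Nfkbid at 560 (nearest 91.8), Icam1 at 138 (nearest 18.7), Rel at 665 (nearest 69.2) and Il1rap, the accessory chain of the interleukin-1 receptor, at 733 CPM (nearest 139). In the other 2 it was ICAM1-high replicate 5, with Tnip1 at 102 CPM (nearest 21.1) and Nfkbib at 39.3 CPM (nearest 4.71).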

How the results depend on the processing

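No NF-kB gene passed the threshold in any of the 17 alternative fits. Of their 170 fold changes 150 kept direction, all of those of Nfkb1 (0.27 to 0.80), Relb (0.45 to 1.73), Bcl3 (-1.69 to -0.73) and Nfkbiz included. The counts over all genes, 166 higher and 37 lower, were 258 higher with library sizes only, 584 and 649 with DESeq2, 480 and 376 with limma-voom, 280 and 261 with the replicate block, 120 lower with no filter, 61 lower with the stricter filter (10 CPM in 4 libraries), 219 and 190 without both libraries numbered 5, and 4 to 337 higher and 0 to 241 lower when single libraries were left out. The titles give the same replicate numbers to both groups but do not say what a number marks. Deviations of same-numbered libraries correlated at r = -0.146, 0.12, 0.154 and 0.38, and those of differently numbered libraries at -0.341 to 0.167. Because 1 of the 4 same-numbered pairs was under 0.1, the replicate block was only an alternative. The p-values of the main fit thus ignore any pairing of the fractions. The replicate block moved no call of the 10 genes. It turned the fold changes of Nfkbie (0.78), Rel (0.46) and Nfkbib (-0.42). Nfkb2 turned to 0.10 with upper-quartile scaling, 0.29 with library sizes only, 0.29 with limma-voom, 0.00 with the stricter filter and 0.08 without both libraries numbered 5. Limma-voom turned Nfkbie (1.42), Nfkbid (0.20), Rel (1.71), Rela (0.19) and Nfkbib (-0.79), and Rela was 0.00 with library sizes only. Without both libraries numbered 5, Nfkbia (0.25), Nfkbie (1.42), Nfkbid (0.07), Tnfaip3 (0.14), Rel (1.50), Rela (0.03) and Nfkbib (-1.54) turned. On leaving out single libraries the ranges were -0.68 to 0.70 for Nfkb2, -0.81 to 0.06 for Nfkbia, -1.03 to 1.60 for Nfkbie, -1.74 to 0.55 for Nfkbid, -1.45 to 0.25 for Tnfaip3, -1.55 to 0.16 for Tnip1, -1.60 to 1.42 for Rel, -0.57 to 0.21 for Rela and -1.63 to 0.69 for Nfkbib; the upper end was without ICAM1-low replicate 5 except for Nfkbib. The cause was not tested. For the 10 genes, with at least 66 counts in every library, counting error was small beside the spread between libraries. No fit was made at another depth, and the part of the 150 pg input in that spread was not tested.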
